A study of Mus musculus with 5 samples.

Results

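The genes described here encode interferon-inducible GTPases and were taken by symbol from the deposited expression table: Gbp2, Gbp3 and Gbp7 of the guanylate-binding protein (GBP) family, Irgm1, Irgm2, Igtp, Iigp1, Tgtp1 and Tgtp2 of the immunity-related GTPase (IRG) family, and Gvin1, a very large inducible GTPase. All 10 were found among 23361 genes. C2C12 is an immortalised mouse myoblast line. While it proliferated in high-glucose medium with serum, 1 culture carried a hairpin against PKM2 (shPKM2) and 1 a control hairpin (shControl), each for 72 h, and 3 cultures were treated for 8 h, with vehicle, with shikonin or with TEPP-46. The target, PKM2, is a pyruvate kinase of glycolysis, shikonin is a naphthoquinone used to inhibit it, and TEPP-46 is known as an activator of it. The labels give neither compound doses nor hairpin sequences, nor how the hairpins were delivered.

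GBP and IRG proteins are cell-autonomous defence GTPases. Interferon binds its receptor, JAK kinases phosphorylate STAT proteins, and STAT and IRF factors switch the genes on. The GTPases then gather on membranes around bacteria, parasites and some viruses, where GBP proteins help to break the vacuole and feed the inflammasome. In mice Irgm1, Irgm2 and Igtp (also called Irgm3) act as regulators that guard the cell's own membranes, while Iigp1 (Irga6), Tgtp1 and Tgtp2 (both Irgb6) are effectors that load onto the vacuole. Most cells hold little of them until interferon arrives.

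Each condition had 1 library, so the values below describe these 5 libraries, and no p-value can be given. A level is given in FPKM (fragments per kilobase and library size, as scaled by the authors) and can be compared between genes. A difference is on the log2(FPKM + 1) scale, which understates changes of low genes, and a gene was counted as higher or lower when it differed at least 2-fold on that scale. The estimated depth was 21900000 to 30300000 reads per library, and errors and intervals below cover counting only. Pkm, the targeted gene, stood at 1041 FPKM in shPKM2 and 2061 FPKM in shControl, and at 1198 to 1501 FPKM in the libraries treated for 8 h. The 8 myoblast marker genes summed to 306 FPKM with shikonin and to 471 to 586 FPKM in the other libraries. In bulk RNA, fewer cells making a transcript and less transcript per cell cannot be told apart.

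The genes lie in clusters (GRCm38, GENCODE M21). Gbp7 (chr3:142530342-142550149), Gbp3 (chr3:142560026-142573209) and Gbp2 (chr3:142620602-142638008) follow each other on the plus strand of chromosome 3. Irgm1, Tgtp1 and Tgtp2 lie on the minus strand of chromosome 11, and Igtp (chr11:58199556-58207591) and Irgm2 on its plus strand. Gvin1 is on chromosome 7. Windows from 250 bases before to 50 bases after the RefSeq transcript starts (GRCm38.p6) were matched for 8 of the 10 genes, in 9 windows, and searched for letters of the interferon-stimulated response element (ISRE, GAAA, NN and GAAA in a row, where N is any base), read by IRF factors and STAT complexes that hold one, and of the gamma-activated site (GAS, TTCNNNGAA), read by STAT dimers. Both strands were searched, and hits of one motif may overlap.

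Stretches of 4 IRG promoters are shown because they have the same arrangement, a GAS whose first base lies 11 bases before that of an ISRE. The motifs are in capitals, on the gene's own strand.
Irgm2 (chr11:58214897-58214926, plus): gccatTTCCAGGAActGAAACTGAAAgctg
Igtp (chr11:58199506-58199535, plus): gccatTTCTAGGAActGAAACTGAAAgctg
Tgtp1 (chr11:48992310-48992339, minus): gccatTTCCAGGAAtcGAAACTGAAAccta
Tgtp2 (chr11:49064269-49064298, minus): gccatTTCCAGGAAtcGAAACCGAAAccta

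In the promoters of the GBP genes the ISRE letters ran on the other strand, and those of Irgm1 and Gbp3 held overlapping pairs. These are shown for the contrast with the arrangement above.
Gbp7 (chr3:142530225-142530296, plus): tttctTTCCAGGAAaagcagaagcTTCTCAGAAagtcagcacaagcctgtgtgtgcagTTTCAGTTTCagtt
Gbp3 (chr3:142559990-142560019, plus): aggacacagTTTCAGTTTCTATTTCccaga
Gbp2 (chr3:142620594-142620623, plus): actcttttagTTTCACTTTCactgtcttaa
Irgm1 (chr11:48871430-48871459, minus): ctgtttcaaGAAATAGAAACCGAAActgat

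ISRE letters were present in 8 of the 9 windows and in 3.44% of all 32851 RefSeq windows. The window without them is 1 of the pair listed for Gbp3. GAS letters were present in 5 windows and in 8.30% of all. A GAS at exactly 11 bases before an ISRE, a spacing defined after these windows had been read, was found in 5 windows of the whole table, those of Irgm2, Igtp, Tgtp1 and Tgtp2 and that of Gm12185, a gene model on chromosome 11. Gm12185 was listed at 0.320 FPKM in shControl and 0.368 FPKM in shPKM2, against 0.0113 to 0.0467 FPKM in the other libraries. Promoters of paralogous genes share descent, so these windows are not independent, and a match of letters is not evidence of a bound site.

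**Figure D1:**
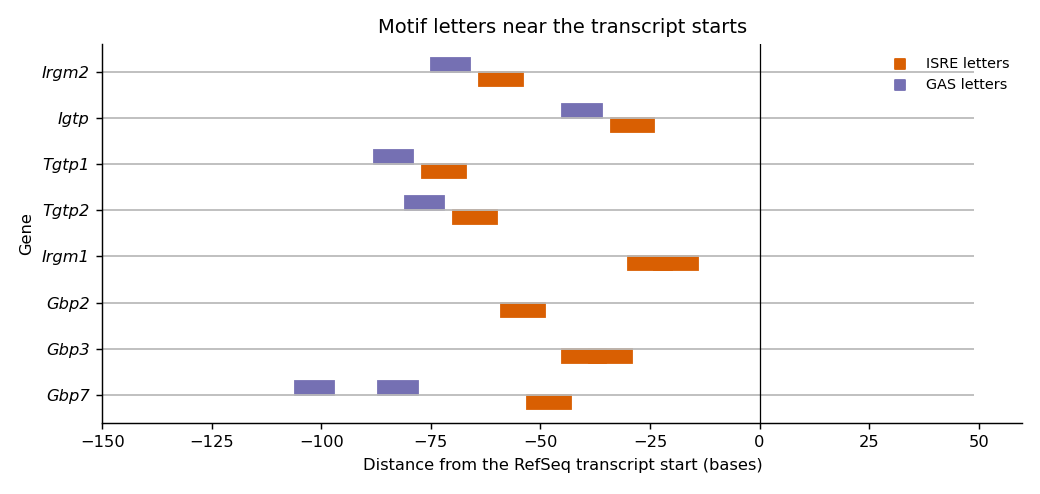
Position of ISRE letters (orange) and GAS letters (purple) relative to the RefSeq transcript start at 0, in bases, for the 8 genes with a matched window; only windows with a match are drawn. All matches lie upstream of the start, between 106 and 15 bases before it.

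The control hairpin and vehicle libraries were set side by side as a yardstick for the levels of a control culture. All 10 genes were higher in shControl, 7 of them at least 2-fold and none lower. The share of all 11128 genes whose mean reached 1 FPKM that differed as much was 3.48% higher, 0.665% lower and 4.14% in either direction. The median difference of the 10 genes was 3.14, beside -0.02 over all genes. The 7 genes are also those that passed the filter on the mean, which they did through the hairpin libraries, except Irgm1, which exceeded 1 FPKM in every library. Hairpin, time and culture differ together between these libraries, so their parts cannot be told apart. Of the 8 myoblast markers, Myf5 (1.50) and Vcam1 (1.42) were also at least 2-fold higher in shControl, with a list median of 0.10, and their part in the result was not tested.

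Irgm1, the IRG regulator that guards the cell's own membranes, had the highest level of the 10 genes in every library. Its level was 8.10 FPKM (vehicle), 10.6 FPKM (shikonin), 5.78 FPKM (TEPP-46), 82.0 FPKM in shControl and 85.4 FPKM in shPKM2. Both hairpin libraries were far above the 8 h libraries, and they exceeded all 3 of these for 21.8% of the 11128 genes. The ratio of shControl to vehicle was 10.1 (95% counting interval 9.46 to 10.9), a difference of 3.19 (counting SE 0.045). Irgm1 made up 93.4% of the summed FPKM of the 10 genes with vehicle and 49.8% in shControl, as the sum went from 8.67 to 165 FPKM.

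The other regulators went from near 0 to above 10 FPKM. Igtp was at 0.0627 FPKM (vehicle), 0.498 FPKM (shikonin), 0.140 FPKM (TEPP-46), 18.9 FPKM in shControl and 20.4 FPKM in shPKM2. Irgm2, a regulator of Golgi membranes, was at 0.0603, 0.0834 and 0.110 FPKM in the vehicle, shikonin and TEPP-46 libraries, and at 13.1 FPKM in shControl and 15.2 FPKM in shPKM2. For both genes both hairpin libraries lay above all 3 of the 8 h libraries, as they did for 21.8% of the 11128 genes. Their differences between shControl and vehicle were 4.23 and 3.73, the 33rd and 46th highest of all genes. The vehicle values rest on an estimated 3.8 and 6.4 reads.

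Gbp3 had the largest difference of the 10. Its level was 0.141 FPKM (vehicle), 0.583 FPKM (shikonin), 0.105 FPKM (TEPP-46), 27.3 FPKM in shControl and 23.6 FPKM in shPKM2. The difference of 4.63 (counting SE 0.064) was the 29th highest of all genes. Gbp2, a prenylated GBP that binds pathogen vacuoles, was at 0.266, 0.595 and 0.0972 FPKM in the vehicle, shikonin and TEPP-46 libraries, and at 9.84 FPKM in shControl and 9.32 FPKM in shPKM2. Gbp7 was at 0.0267, 0.126 and 0.0547 FPKM in the 8 h libraries, and at 9.20 and 8.54 FPKM in shControl and shPKM2. The shControl to vehicle ratio of Gbp2 was 37.0 (95% counting interval 24.0 to 61.8), while that of Gbp7 rests on 4.5 estimated reads with vehicle and its interval ran from 134 to 965. In all 3 GBP genes the hairpin libraries lay above every 8 h library, which held for 21.8% of the 11128 genes.

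Iigp1, Tgtp1 and Tgtp2, the effector IRG genes among the 10 members, had lower levels than the regulators in every library. Iigp1, which lies on chromosome 18, stood at 0.0104 FPKM with vehicle, an estimated 1 read, and was listed at 0 with shikonin and TEPP-46. It reached 3.12 FPKM in shControl and 2.88 FPKM in shPKM2. Its difference between shControl and vehicle was 2.03, the 131st highest of all genes. Tgtp1 and Tgtp2 were listed at 0 in all 3 of the 8 h libraries. Tgtp1 stood at 0.370 FPKM in shControl and 0.234 FPKM in shPKM2, and Tgtp2 at 0.914 and 0.870 FPKM, so neither was at least 2-fold higher on the scale with 1 added. Their longest transcripts are 99.3% identical, and 89.4% of the 50-nt stretches of Tgtp1 also occur in Tgtp2, so how the authors' counting divided reads between them is uncertain. Taken as 1 gene they were at least 2-fold higher in shControl than with vehicle, which made 8 of 9.

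Gvin1 was the lowest of the 10 in the hairpin libraries. It stood at 0.0983 FPKM in shControl and 0.110 FPKM in shPKM2, an estimated 19.8 and 25.3 reads, and at 0.00318, 0.00221 and 0.00608 FPKM with vehicle, shikonin and TEPP-46. Since 98.3% of its 50-nt stretches also occur in Gm4070, a close copy, its level cannot be assigned to Gvin1 alone. Gm4070 itself was at 0.111 FPKM in shControl and 0.125 FPKM in shPKM2. Of the other members, 12.3% of the stretches of Igtp occur in Irgm2 transcripts, with which it overlaps on the same strand, 12.8% of those of Gbp7 occur in other genes, and 7.30% of those of Irgm2. For Gbp2, Gbp3, Irgm1 and Iigp1 the share was at most 4.79%.

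**Figure D2:**
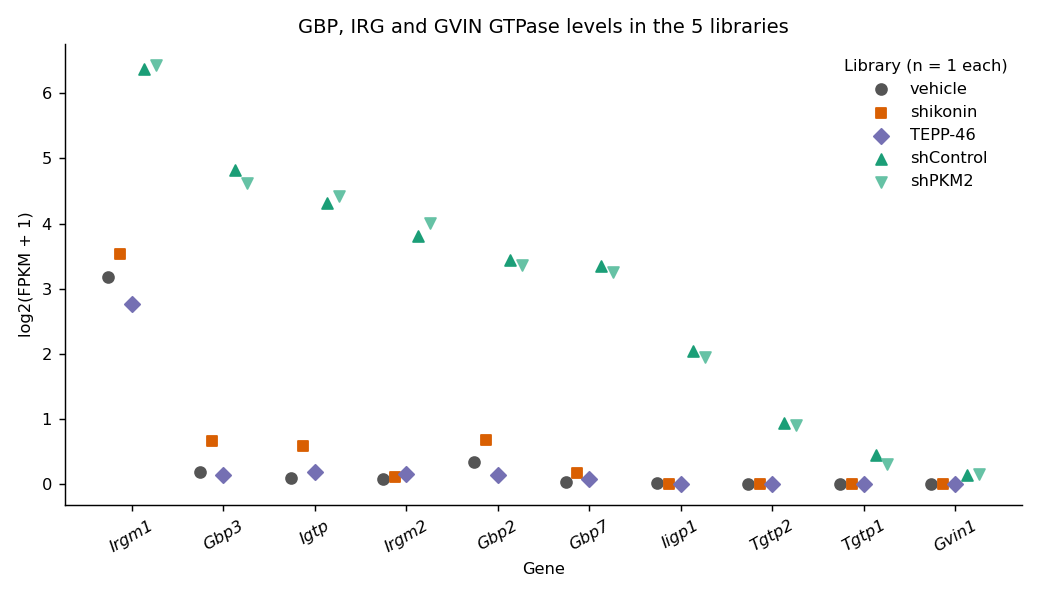
Level of each gene, as log2(FPKM + 1), in the vehicle, shikonin, TEPP-46, shControl and shPKM2 libraries (1 point per library), ordered by the shControl level. The shControl and shPKM2 points lie above the 3 points of the 8 h libraries for every gene, as for 21.8% of the 11128 genes. In the 8 h libraries Irgm1 alone reaches 1 FPKM.

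The genes had the same order of levels in both hairpin libraries. It ran from Irgm1 through Gbp3, Igtp, Irgm2, Gbp2, Gbp7, Iigp1, Tgtp2 and Tgtp1 to Gvin1. The end of this order, Tgtp2, Tgtp1 and Gvin1, lay below 1 FPKM. Gbp2 and Gbp7 are neighbours in this order at 9.84 and 9.20 FPKM in shControl. With vehicle only Irgm1 reached 1 FPKM, and the others, led by Gbp2, rested on at most 20.3 estimated reads each. The summed level of the 3 GBP genes was 0.433 FPKM with vehicle and 46.3 FPKM in shControl, and that of the 6 IRG genes 8.23 and 118 FPKM.

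Knockdown of Pkm was compared with the control hairpin to ask whether the GTPase genes followed the enzyme. None of the 10 differed at least 2-fold. Of all genes 0.62% did, 0.395% higher and 0.225% lower. The member median difference was -0.05 and the range -0.20 to 0.20, beside an all-gene median of 0.00 and a central 95% of genes between -0.40 and 0.42. Gbp2, Gbp3 and Gbp7 had slightly lower values in shPKM2 and Irgm1, Irgm2 and Igtp slightly higher ones, not all beyond counting error. Of the other GBP genes, Gbp9 (0.38), Gbp10 (0.29), Gbp6 (0.23), Gbp4 (0.21) and Gbp11 (0.07) had higher values in shPKM2. Gbp1 (-0.04), Gbp5 (-0.03) and Gbp8 (-0.05) had lower ones. Gbp8 and Gbp11 rested on at most an estimated 5.6 reads in these libraries. Gbp3 had a ratio of shPKM2 to shControl of 0.866 (95% counting interval 0.807 to 0.927) and a difference of -0.20 (counting SE 0.049). Irgm2 had a ratio of 1.16, with a counting interval that began at 1.07, and a difference of 0.20 (counting SE 0.056). Irgm1 stood at a ratio of 1.04 (95% counting interval 1.01 to 1.08). For Gbp2, Gbp7, Igtp, Iigp1, Tgtp1, Tgtp2 and Gvin1 the interval included equal levels. Counting intervals leave out variation between cultures, so these shifts have no replicate check.

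With vehicle in place of shControl as the control of shPKM2, 7 of the 10 genes were at least 2-fold higher and the median difference was 3.12. On this scale the knockdown library lay near its hairpin control and far from the vehicle library.

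**Figure D3:**
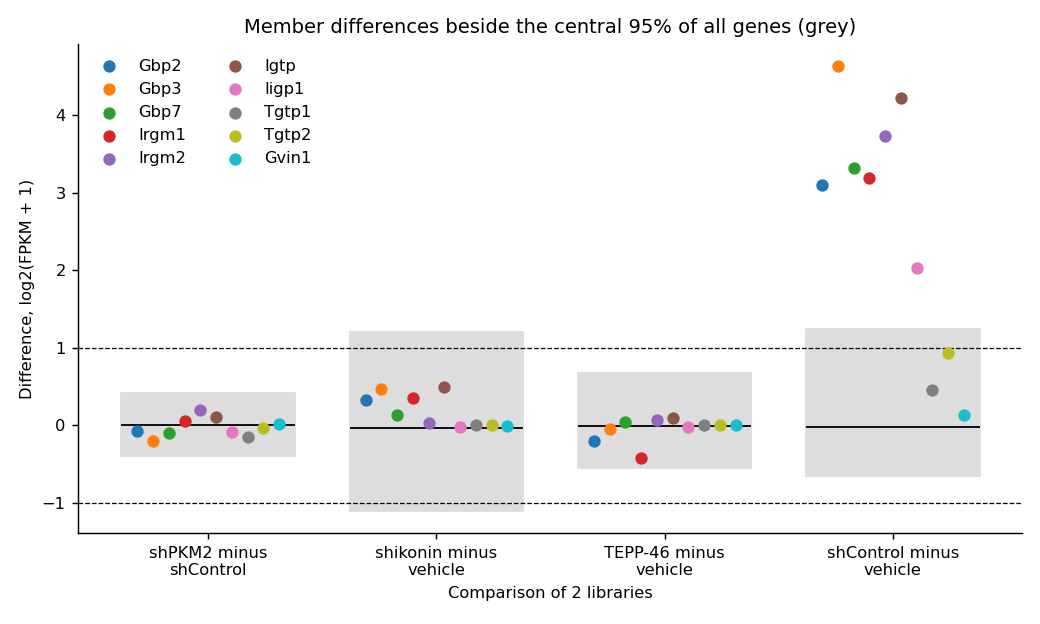
Difference of log2(FPKM + 1) for each of the 10 genes (coloured points) in 4 comparisons of 1 library with another; grey bars span the central 95% of all 11128 genes, black lines their median, and dashed lines mark 2-fold. Every gene lies within the grey bar in the first 3 comparisons, and 7 genes lie above it between shControl and vehicle.

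Shikonin was compared with vehicle at 8 h. None of the 10 genes differed at least 2-fold on the scale with 1 added, while 7.5% of all genes did, 4.01% higher and 3.50% lower. The member median was 0.08, beside -0.03 over all genes. Low levels hide larger ratios, and a gene below 1 FPKM with vehicle, as all but Irgm1 were, cannot be counted as lower on this scale. Gbp3 stood at 0.583 FPKM against 0.141 FPKM, a ratio of 4.14 (95% counting interval 2.11 to 9.34) from an estimated 34.2 and 11.4 reads. Igtp had a ratio of 7.94 (2.58 to 30.3) from 22.1 and 3.8 reads, Gbp7 one of 4.70 (1.43 to 14.6) from 15.5 and 4.5 reads, and Gbp2 one of 2.24 (1.27 to 4.19). Irgm1, with 889.8 and 938.8 estimated reads, had a ratio of 1.31 (95% counting interval 1.19 to 1.44) and a difference of 0.35. Irgm2 rested on 6.4 reads in each library and its interval, 0.369 to 5.17, included equal levels. All these shikonin levels remained below those of the hairpin libraries. The myoblast markers moved beside them: all 8 were lower with shikonin than with vehicle (median -0.68), Myf5 (-1.32) and Myod1 (-1.25) at least 2-fold. Their part in the result was not tested.

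The TEPP-46 values below share their vehicle library with those of shikonin. Again none of the 10 genes differed at least 2-fold, while 1.59% of all genes did, 1.23% higher and 0.359% lower. The member median was 0. With vehicle only Irgm1 reached 1 FPKM, and a gene below that cannot be counted as lower on the scale with 1 added. With 0.1 FPKM added still none differed at least 2-fold, and Gbp2 differed by -0.89. Of the myoblast markers, Myf5 (1.07) was at least 2-fold higher and the other 7 were lower by less than that, and their part was not tested. Irgm1 was at 5.78 FPKM against 8.10 FPKM, a ratio of 0.715 (95% counting interval 0.641 to 0.796) and a difference of -0.42 (counting SE 0.068). Gbp2 had a ratio of 0.365 (0.126 to 0.990) from 5.8 and 20.3 estimated reads. The intervals of Gbp3, Gbp7, Irgm2 and Igtp included equal levels, with 9.2 estimated reads or fewer for each in the TEPP-46 library. The doses of both compounds are not in the labels, and the compounds were not compared at matched dose.

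**Figure D4:**
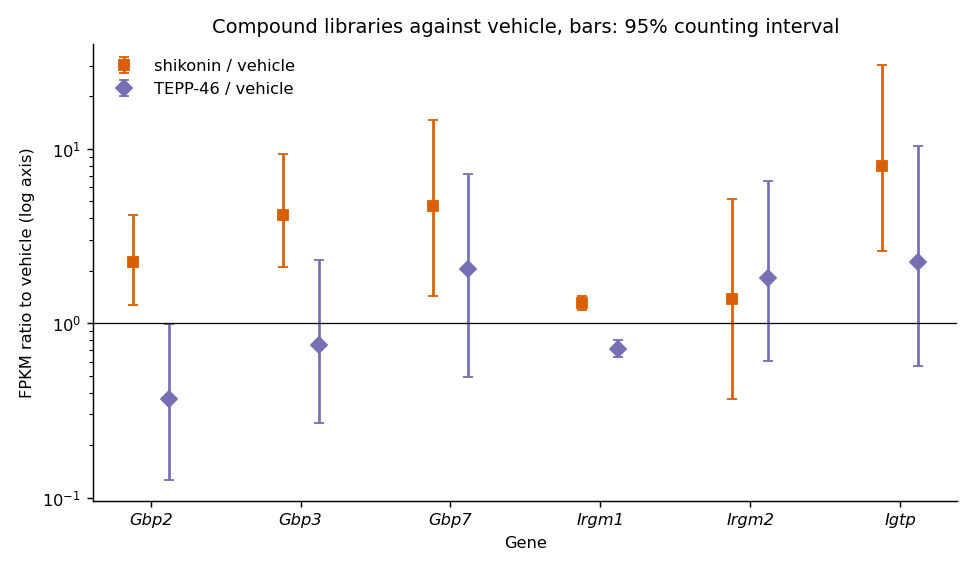
Ratio of FPKM to the vehicle library (log axis) for shikonin (orange squares) and TEPP-46 (purple diamonds) in the 6 genes with reads in every library and more than 2 estimated reads in each; bars are 95% counting intervals. Shikonin ratios exceed 1 with intervals above 1 for Gbp2, Gbp3, Gbp7, Irgm1 and Igtp, and TEPP-46 ratios lie below 1 with intervals below 1 for Gbp2 and Irgm1.

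Close relatives outside the 10 genes were read from lists of the GBP and the IRG and GVIN families. Of 8 other GBP genes in the table, 7 were higher in both hairpin libraries than in all 3 of the 8 h libraries. This held for 10 of the 10 genes above and for 21.8% of all tested genes. The tested genes had a mean of at least 1 FPKM, which only 2 of the 8 and 7 of the 10 reached. Gbp1 (Gbp2b in newer annotation) was at 5.92 FPKM in shControl and 5.74 FPKM in shPKM2, against 0.111 to 0.527 FPKM in the other libraries. Gbp9 was at 3.37 and 4.68 FPKM in the hairpin libraries, Gbp6 at 1.14 and 1.52, Gbp10 at 0.938 and 1.37, Gbp5 at 0.861 and 0.818, and Gbp4 at 0.568 and 0.810 FPKM. Gbp11, at 0.0308 and 0.0812 FPKM, rested on an estimated 1.9 and 5.6 reads. Gbp8, at most 0.0506 FPKM in any library, did not follow them.

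Of 13 other IRG and GVIN genes, 6 were above the 8 h libraries in both hairpin libraries, as were 21.8% of all tested genes. Only 2 of the 13 were among the tested genes, so the shares cover genes of unlike level. Ifi47 (Irgd), an effector, was at 3.08 and 2.80 FPKM in shControl and shPKM2 and at 0.809, 0.104 and 0.191 FPKM in the vehicle, shikonin and TEPP-46 libraries. Gm12250 (Irgb10), Gm4951, Gm4070, the close copy of Gvin1, F830016B08Rik and Gm8979 were the others, none above 0.231 FPKM. In shControl and shPKM2, Gm8979 rested on an estimated 2.0 reads each, F830016B08Rik on 2.8 and 6.4, and Gm12250 on 6.6 and 5.7. Irgq, a gene of the quasi-IRG type, had the opposite order: 7.82 FPKM (vehicle), 9.41 FPKM (shikonin), 7.42 FPKM (TEPP-46), 3.95 FPKM in shControl and 5.33 FPKM in shPKM2. Gm17757 was listed at 0 throughout, and the ranges of Irgc1, 9930111J21Rik1, 9930111J21Rik2, Gm5431 and Gm4759 overlapped or touched between the groups. Among other dynamin-type GTPases, Mx2, an antiviral GTPase, was at 14.8 FPKM in shControl and 0.0129 FPKM with vehicle, the only 1 of 9 measured, meaning with a mean of at least 1 FPKM, that differed at least 2-fold. Mx1, just under that mean, was at 1.93 FPKM in shControl and listed at 0 with vehicle. The other 8, atlastin, dynamin, mitofusin and Opa1 genes that shape membranes, differed by -0.47 to 0.46 between shControl and vehicle.

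The signalling chain was described in order. Interferon transcripts were at the floor. Ifnb1, the interferon beta gene, was listed at 0 in the 3 libraries of 8 h and at 0.340 FPKM in shControl and 0.240 FPKM in shPKM2, an estimated 5.7 and 4.6 reads. Ifng, the main inducer of these GTPases in immune responses, was at 0 to 0.203 FPKM, at most an estimated 6.2 reads. None of the 8 measured receptor and JAK genes differed at least 2-fold between shControl and vehicle (median 0.07). Il10rb was highest at 0.50, followed by Ifngr2 at 0.43 and Tyk2 at 0.40, and Ifngr1 was lowest at -0.31.

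Among genes of the factors that act on ISRE letters, Stat2 stood at 34.2 FPKM in shControl and 38.7 FPKM in shPKM2, against 4.56 to 9.48 FPKM in the 8 h libraries. It was higher in shControl than with vehicle by 2.66 and Irf9, its partner, by 2.85, while Irf7 reached 78.4 FPKM in shPKM2 and was higher by 6.03 in shControl. Irf1, a factor that acts on these promoters, differed by 0.94, and Irf2, Irf3 and Stat3 by -0.14 to 0.39. Nlrc5 was higher by 1.09. In shPKM2 against shControl none of these genes differed at least 2-fold.

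With shikonin none of these factors differed at least 2-fold, Stat2 (0.92), Irf9 (0.63) and Irf7 (0.57) being the highest. With TEPP-46 the largest difference was that of Nlrc5 (0.49). Ciita, the MHC class II activator usually induced by interferon gamma, was at most 0.00788 FPKM in any library, and Irf8 was listed at 0 in all but the shikonin library, with an estimated 1.1 reads.

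Sensors, feedback genes and antiviral genes were set beside the GTPases. Of 12 measured nucleic acid sensor genes, 6 were at least 2-fold higher in shControl than with vehicle, led by Zbp1 (4.67), Ddx58 (4.16), which encodes RIG-I, Dhx58 (3.49) and Ifih1 (3.46). Among feedback genes, Isg15 (7.39) and Usp18 (6.02) did so, and Socs1 (0.05) did not. All 19 measured antiviral genes were at least 2-fold higher, with a median of 5.09, led by Ifit1 (6.33), Oasl2 (6.09), Bst2 (5.95) and Ifi44 (5.41). Of all 11128 genes 3.48% were at least 2-fold higher. Zbp1, Dhx58, Ifih1, Usp18, Ifit1, Oasl2 and Ifi44 were below 1 FPKM with vehicle and passed the filter on the mean through the hairpin libraries. The GTPase median of 3.14 was lower than the antiviral median, on a scale that compresses genes of low level.

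Genes that work with GBP and IRG proteins were mixed. Of 17 measured genes of LC3 conjugation and ubiquitin tagging, which bring the GTPases to vacuoles, only Trim21 (2.40) was at least 2-fold higher in shControl than with vehicle, and the list median was 0.14. With shikonin 5 of the 17 were, namely the receptor gene Sqstm1 (3.32), Gabarapl1 (1.98), Atg12 (1.21), Ulk1 (1.19) and Map1lc3b (1.16), and with TEPP-46 Sqstm1 alone (1.72). Of 10 inflammasome genes only 4 were measured, and the others had a mean below 1 FPKM. Of the 4, Casp4 (2.58), which encodes the sensor of bacterial lipopolysaccharide, Gsdmd (1.32) and Casp1 (1.21) were at least 2-fold higher in shControl. Casp4 was also higher with shikonin (1.58). With vehicle Casp4 (0.883 FPKM) and Casp1 (0.436 FPKM) were below 1 FPKM. None of the 6 genes of prenylation and the processing that follows it, steps that modify some GBP proteins, differed at least 2-fold in any of the comparisons. In shPKM2 against shControl no gene of these lists did.

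**Figure D5:**
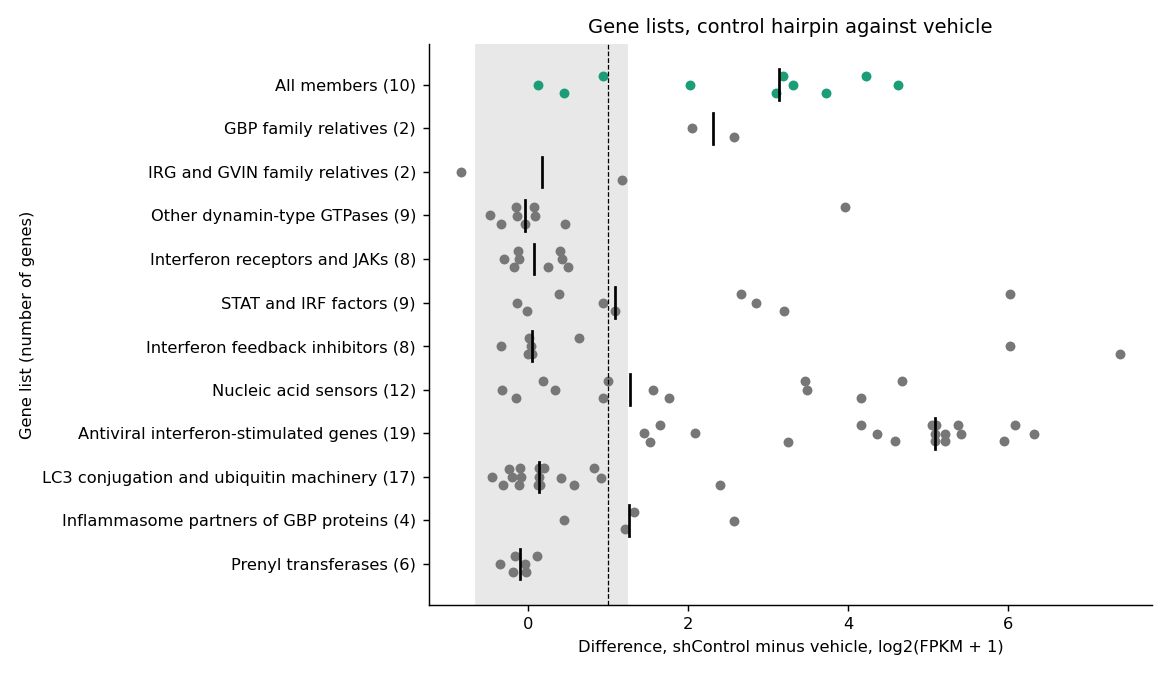
Difference of log2(FPKM + 1), shControl minus vehicle, for the 10 GTPase genes and for each measured gene of the other lists (points; numbers of genes in brackets); black bars are list medians, the grey band spans the central 95% of all genes and the dashed line marks 2-fold. Antiviral genes lie furthest right (median 5.09). Receptor genes, LC3 genes and the list labelled prenyl transferases, which also holds genes of later processing, lie mostly within the band.

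Genes of other cell types were checked beside these values. Of 7 macrophage markers in the table, 6 were below 0.2 FPKM in every library but that of shikonin, where Csf1r stood at 0.870 FPKM and 5 were below. Ptprc, the pan-leukocyte gene, was at most 0.0555 FPKM, and Itgam was listed at 0 in both hairpin libraries and with shikonin. The list sum was 9.31 to 17.1 FPKM in the 8 h libraries and 22.1 to 26.9 FPKM in the hairpin libraries, nearly all of it Cd14, which stood at 26.7 FPKM in shControl and 9.09 FPKM with vehicle; its part in the results was not tested. The 7 T and NK cell markers summed to at most 0.275 FPKM in any library, and the 5 endothelial markers to at most 0.748 FPKM, the latter with shikonin. The 5 fibroblast markers summed to 1.35 FPKM with vehicle, 4.20 FPKM with shikonin and 1.20 to 1.99 FPKM in the other libraries. Most of that was Pdgfra, at 4.01 FPKM with shikonin and 1.24 FPKM with vehicle, a difference of 1.16, and its part in the shikonin values was not tested.

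The genes with the profile nearest to the mean of the 10 were found by root mean square distance between centred log2(FPKM + 1) values over the 5 libraries. The nearest were H2-T23 (distance 0.053), a non-classical MHC class I gene, Dtx3l (0.078), a ubiquitin ligase gene, Gbp1 (0.089), Sp100 (0.12), Psmb10 (0.14), an immunoproteasome subunit gene, Oas1b (0.14), Herc6 (0.15), Ly6c1 (0.15), Parp12 (0.15) and Ccl4 (0.15), while 95% of 11121 genes lay further away than 0.878. H2-T23 stood at 7.69 FPKM with vehicle, 49.4 FPKM in shControl and 53.0 FPKM in shPKM2. For single members the nearest were Parp9 for Gbp2 and Irgm1 (0.12 and 0.11), Zbp1 for Gbp3 (0.19), Ddx58 for Igtp (0.076), I830012O16Rik for Irgm2 (0.082) and Ddx60 for Iigp1 (0.016). Tgtp1, Tgtp2 and Gvin1 varied so little on this scale that genes of small range were nearest, Mrps28, Gsto2 and Arl5c. The order depends on the size of the change as well as its shape. Only 1 of the 10 genes remained among the nearest with the median profile, and 2 with 5 FPKM added.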

How the data were processed

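Polyadenylated RNA of 5 C2C12 cultures was sequenced, 1 library per condition. The authors deposited FPKM values per gene, and per the submitters' processing notes used Trim Galore 0.6.0, cutadapt, FastQC and DESeq2 1.26.0 with genome build GRCm38. Aligner, counting program, annotation and strandedness: not given in the sources used here. In the header, shControl carries an unexplained numeral. FPKM is already scaled to depth and length, so no count model was used. Differences are of log2(FPKM + 1), over the 11128 genes whose mean reached 1 FPKM. Reads were estimated from the steps of low values: the vehicle depth was the median over 551 genes with a single GENCODE M21 transcript (30300000 reads, quartiles 26200000 and 32200000), the most frequent ratio of low values gave the others, and the longest transcript gave the length. A 95% counting interval of a ratio is the exact conditional (Clopper-Pearson) interval on rounded reads, and the counting SE applies to log2(FPKM + 1) where both libraries had at least 10 reads. The interval and the SE also leave out the uncertainty of the estimated depth. The counts and the distance measure were tested on simulated data. Promoter windows and their letters came from RefSeq (GRCm38.p6). The last 30 bases of 7 of 9 windows matched a GENCODE transcript in sense. All windows were read as lying on the gene's strand, which this check did not show for the others. Protein features were planned but not analysed here. The members and lists were chosen with earlier results of these data known. The genes named were the 10 members, all listed family relatives, up to 4 genes of each other list and comparison by size of difference, Stat2, Irf1 and Irf9, the 10 nearest genes and the nearest to single members, and Pkm; Mx1, Myf5, Myod1, Vcam1, Pdgfra, Ptprc, Csf1r, Itgam, Cd14, Ciita, Irf8, Ifnb1, Ifng, Irf2, Irf3, Stat3 and Gm12185 were added after their values were seen. Python 3.11.15, pandas 2.3.3, numpy 2.4.6, scipy 1.17.1, Biopython 1.88 and matplotlib 3.10.9 were used. Alternatives were the added value, the filter, rescaling to TPM, the control library and the sum of Tgtp1 and Tgtp2. Some results are not reported here.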

Additional observations from a re-analysis of the deposited data

How the results depend on the processing

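No paired analysis was possible because each condition had 1 library, and for the same reason no library could be left out. No difference of a single member changed sign with 0.1 or 5 FPKM added in place of 1, or after rescaling to TPM. With 0.1 FPKM added, 2 members were at least 2-fold higher with shikonin than with vehicle, Gbp3 (1.50) and Igtp (1.88), and the median between shControl and vehicle was 4.81. The number of members at least 2-fold higher in shControl than with vehicle was 6 to 9 with these settings and with TPM. With 5 FPKM added that median was 1.50, and after rescaling to TPM it was 3.38. A minimum mean of 5 FPKM left fewer members, of which 4 were at least 2-fold higher in shControl than with vehicle (median 3.98). With that minimum the median was 0.41 for shikonin and 0.082 for shPKM2 against shControl. With vehicle as the control, 7 members were at least 2-fold higher in shPKM2 (median 3.12), as were 456 of all 11128 genes. With shControl as the control, 7 were at least 2-fold lower with shikonin (median -2.80) and 7 with TEPP-46 (median -3.29). Of all 11128 genes, 831 were at least 2-fold lower with shikonin and 488 with TEPP-46 against that control. The nearest 10 genes shared 1 gene with those from the median profile and 2 with those at 5 FPKM added. The cause of these changes was not tested. Levels of most members in the 8 h libraries rest on fewer than 35 estimated reads, which limits what those comparisons can show.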

Other observations

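Irg1 (Acod1), which encodes the enzyme that makes the antimicrobial metabolite itaconate and is no GTPase despite its symbol, was looked up after its values were seen. It was listed at 0 with vehicle, shikonin and TEPP-46 and stood at 1.37 FPKM in shControl and 0.939 FPKM in shPKM2.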
